A study of Rattus norvegicus with 9 samples.

Results

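The genes described here are 9 genes that mark mast cells: the proteases Cpa3, Mcpt1, Cma1, Tpsab1 and Tpsb2, the receptor genes Kit, Fcer1a and Ms4a2, and the histamine-forming enzyme Hdc. Each was read from the array feature annotated with that symbol alone, and all 9 had 1 such feature among the 29215 features and 14506 genes measured. The group was chosen on measured values in part, since earlier results of these data were known when it was put together. Among these were the F+ to F- differences of Cpa3 and Cma1, between arrays of fibrotic and non-fibrotic hearts. The values of the group are therefore a description.

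The study asked which genes accompany fibrosis, as distinct from hypertrophy, in the pressure-overloaded right ventricle. Whole right ventricles came from male rats of the SD (Sprague-Dawley) strain that had a sham operation (Sham group) or pulmonary artery banding (PAB), a surgical narrowing of the outflow of the right ventricle. The banded hearts were divided some weeks after the operation by a cut on the fibrotic area of the tissue. The F- group, called without fibrosis, lay below the cut, and the F+ group, called with fibrosis, lay above it. There were 9 Affymetrix Rat Gene 1.0 ST arrays, 3 per group, which the labels number from 1 to 3. The sources used here do not give the age of the rats, or whether 3 separate animals stood behind each set of 3 arrays. Since the methods also speak of averaged triplicate hybridizations, the p-values below cover only the array-to-array spread, which could be technical. The F- and F+ groups share the banding and differ in how they were sorted afterwards, not in what was done to them.

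Mast cells are resident cells of connective tissue, also found in the heart, that store histamine and proteases in granules and release them on activation. Antigen bound to IgE on the high-affinity receptor, of which Fcer1a encodes the alpha chain that binds IgE and Ms4a2 the beta chain that amplifies the signal, triggers this release. Kit encodes the receptor for stem cell factor, on which mast cells depend for growth and survival, and chymases of mast cells are known for forming angiotensin II in cardiac tissue. Connective tissue mast cells of rodents store carboxypeptidase A3 together with chymases and tryptases, bound to heparin in the granule.

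Every value below is the deposited signal of 1 array, in arbitrary units, and the medians of the arrays lay between 33.4 and 33.9. The values ranged from 1 to 190.4, and the highest was 5.65 times the median, which is narrow for a linear array intensity. The sources used here name neither the scale nor the normalization, so a ratio or log2 fold change below holds on the deposited scale only. Of the 9 genes, 5 (Mcpt1, Cma1, Ms4a2, Fcer1a and Hdc) lay in the dimmest 33.3% of the features, and no detection calls were used. Cardiomyocyte genes were bright on all arrays, with Actc1, cardiac actin, between 172.2 and 179.9. Sham array 2 stood apart in genes of the atrial chamber, with 85.8 for Bmp10 against 15.5 to 18.9 on the other 8 arrays and 115.1 for Sln against 38.0 to 53.8. In whole ventricle, more mast cells and more RNA per mast cell cannot be told apart.

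The upstream sequences of 4 of the genes are shown because 6-base motifs named for factors of mast cells, the GATA family and MITF, lie in them. They are the 250 bases before the start that the promoter table made from RefSeq on the rat assembly GRCr8 uses, 5′ to 3′ on the strand of the gene. That start lay inside the outer limits of the gene for Cpa3 and Fcer1a, so that 16 bases and 44 bases of their stretches fall within the gene spans given below. Capitals mark AGATAA, a motif of the GATA family, and CATGTG, the M-box of MITF, or the same motifs on the opposite strand, which read TTATCT for the first motif and CACATG for the second. They come from chr2:104673238-104673487 (minus strand) for Cpa3, chr15:33390134-33390383 (minus strand) for Cma1, chr13:88224680-88224929 (minus strand) for Fcer1a and chr10:14886060-14886309 (plus strand) for Tpsb2.
Cpa3: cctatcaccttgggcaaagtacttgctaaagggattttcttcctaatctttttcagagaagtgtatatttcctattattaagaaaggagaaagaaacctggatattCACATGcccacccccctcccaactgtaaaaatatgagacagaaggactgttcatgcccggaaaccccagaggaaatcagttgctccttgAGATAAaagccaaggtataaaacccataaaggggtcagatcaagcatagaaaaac
Cma1: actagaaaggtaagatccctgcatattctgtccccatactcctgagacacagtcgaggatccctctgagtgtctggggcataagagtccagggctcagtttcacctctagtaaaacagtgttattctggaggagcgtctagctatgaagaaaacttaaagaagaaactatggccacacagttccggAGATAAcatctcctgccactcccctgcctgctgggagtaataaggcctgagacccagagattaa
Fcer1a: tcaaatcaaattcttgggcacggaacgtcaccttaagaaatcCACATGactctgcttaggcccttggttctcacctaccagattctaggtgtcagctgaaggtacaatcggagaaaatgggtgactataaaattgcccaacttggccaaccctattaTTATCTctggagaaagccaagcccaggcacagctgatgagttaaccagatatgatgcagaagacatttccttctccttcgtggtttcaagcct
Tpsb2: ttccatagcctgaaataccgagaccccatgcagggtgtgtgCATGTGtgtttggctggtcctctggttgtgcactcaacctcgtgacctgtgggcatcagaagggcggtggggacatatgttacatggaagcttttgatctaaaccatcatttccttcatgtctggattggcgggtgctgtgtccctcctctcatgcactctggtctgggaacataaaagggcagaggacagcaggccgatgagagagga
The 8 genes with such a stretch (all but Ms4a2) were searched on both strands. AGATAA was found in 3 of the 8, 55 to 50 bases before the start of Cpa3, 64 to 59 bases before that of Cma1 and, on the opposite strand, 93 to 88 bases before that of Fcer1a. It was present in 10.3% of the 33469 rat promoters of the same length. CATGTG was found in 3 of the 8, on the opposite strand 144 to 139 bases before Cpa3 and 208 to 203 bases before Fcer1a, and 209 to 204 bases before Tpsb2, against 12.1% of all promoters. The E-box CACGTG was in 0 of the 8 and in 5.59% of all. These matches describe the letters only and were not set against the array values.

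Cpa3 had the highest F+ to F- ratio of geometric means among the 9 genes, although Mcpt1 was above it with arithmetic means and without F+ array 3. It encodes carboxypeptidase A3, a granule protease that removes amino acids from the carboxyl end of peptides, and lies at chr2:104641619-104673253 of GRCr8. On arrays 1, 2 and 3 in that order, Cpa3 was 25.9, 22 and 21.7 in Sham, 27.5, 17.6 and 24.0 in F-, and 30.5, 50 and 30.7 in F+. The 3 F+ arrays lay above all 6 others, and F+ array 2 stood far above the other F+ arrays. The group means were 23.2 ± 2.34 (SD, n = 3) for Sham, 23.0 ± 5.02 for F- and 37.1 ± 11.2 for F+. Cpa3 differed by 0.67 on the log2 scale from F- to F+ (standard error 0.227, 95% confidence interval 0.14 to 1.2), a ratio of 1.59, which did not pass over all features (limma, unadjusted p = 0.0189, adjusted p = 0.637). Against Sham the F+ group differed by 0.64 (adjusted p = 0.633 from limma) and the F- group by -0.030 (adjusted p = 0.982). Without F+ array 2 the ratio of F+ to F- was 1.35. The exact two-sided permutation test gave p = 0.1, the smallest that 3 against 3 arrays allow.

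Cma1 encodes mast cell chymase, also listed as Mcpt5, and lies at chr15:33387351-33390133. It was 14.8, 10.9 and 12.6 in Sham, 14.8, 13.6 and 13.7 in F-, and 15, 20.2 and 17.9 in F+. The F+ arrays were again above all others, but F+ array 1 exceeded the highest Sham and F- arrays by only a little. The means were 12.8 ± 1.96 (SD, n = 3), 14.0 ± 0.666 and 17.7 ± 2.61 for Sham, F- and F+. Cma1 differed by 0.33 on the log2 scale between F+ and F- (standard error 0.133, limma unadjusted p = 0.0408, adjusted p = 0.671) and by 0.47 between F+ and Sham (unadjusted p = 0.00784, adjusted p = 0.616). The ratio of F+ to F- was 1.25, and 1.17 without F+ array 2. The F- group was 0.15 above Sham (adjusted p = 0.783 from limma), with overlapping arrays.

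Mcpt1, annotated as mast cell protease 1, is another chymase gene, at chr15:33841606-33844174. RefSeq lists rMCP-1 and rMCP-2 among its synonyms, so the name alone does not settle which protein its feature stands for. The study listed Mcpt2 among its genes raised more than 1.5-fold in F+ against F-. Its ratios for Mcpt2 match those of the arithmetic group means of this feature in all 3 comparisons. The feature named Mcpt1 here thus appears to be the one reported as Mcpt2. Mcpt1 was 6.4, 7.2 and 7.6 in Sham, 7.6, 5.8 and 7.6 in F-, and 8.0, 20.6 and 5.6 in F+. F+ array 2 was 2.58 times the highest of the other 8 arrays, whereas F+ array 3 was the lowest of all 9. The mean of the F+ group, 11.4 ± 8.06 (SD, n = 3), therefore rested on 1 array, beside 7.07 ± 0.611 in Sham and 7 ± 1.04 in F-. The fitted log2 fold change between F+ and F- was 0.49 with a 95% confidence interval from -0.48 to 1.46 (limma, adjusted p = 0.794). Without F+ array 2 the ratio of F+ to F- turned from 1.40 to 0.964.

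**Figure D1:**
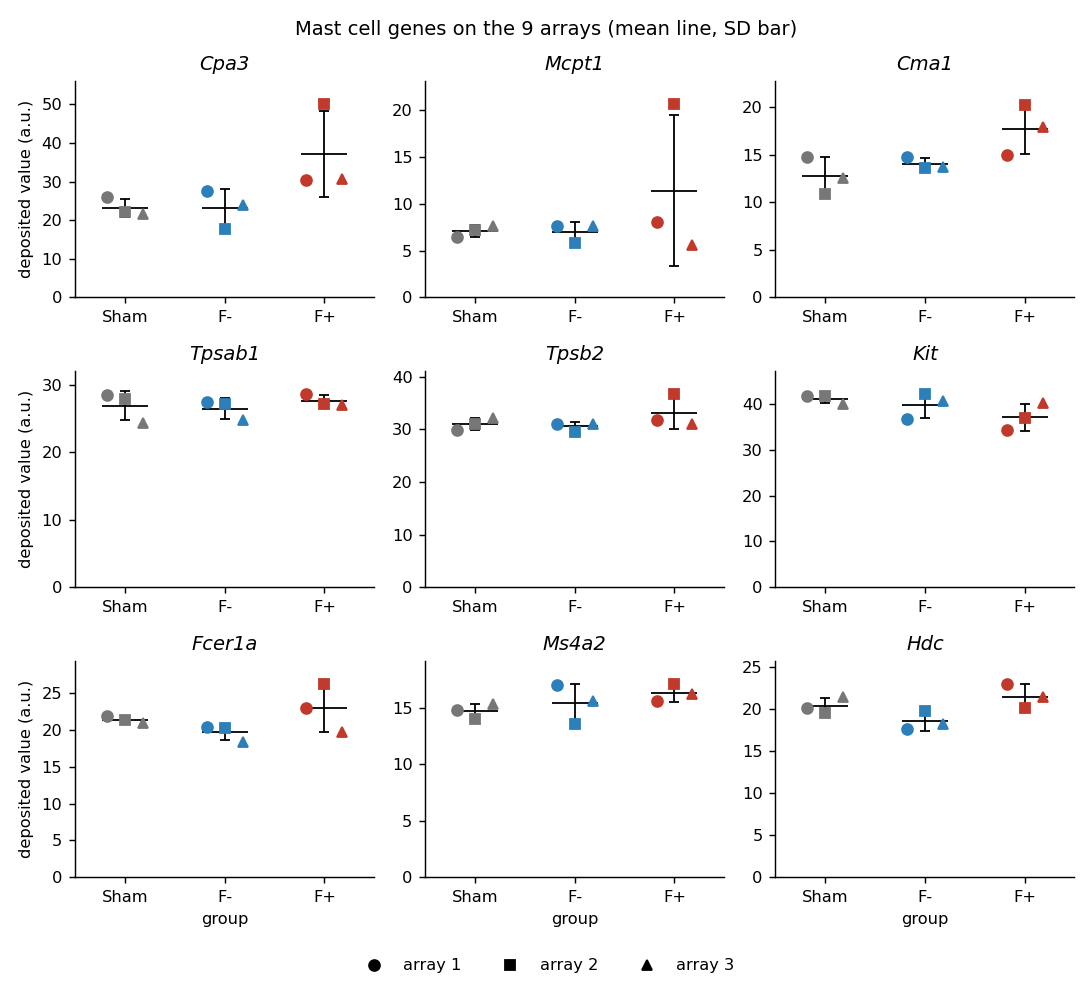
Deposited values (vertical axis, arbitrary units, from 0) of the 9 mast cell genes on each array of the Sham, F- and F+ groups, where circles, squares and triangles are arrays 1, 2 and 3, lines are group means and bars are SDs (n = 3). The F+ squares (array 2) stand at 50 for Cpa3 and 20.6 for Mcpt1, and the F+ arrays of Cpa3 and Cma1 lie above all others.

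The tryptases, trypsin-like proteases stored as tetramers with heparin, varied less. Tpsb2 (also Mcpt6), at chr10:14886310-14888102, was 29.8, 31.1 and 32.2 in Sham, 31.1, 29.5 and 31.1 in F-, and 31.7, 36.7 and 31.1 in F+. All but F+ array 2 lay between 29.5 and 32.2, and the groups overlapped. Tpsb2 differed by 0.11 on the log2 scale between F+ and F- (limma, standard error 0.0648, adjusted p = 0.719), and the ratio went from 1.08 to 1.03 without F+ array 2.

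Tpsab1 (also Mcpt7), at chr10:14864887-14867302, was 28.4, 27.9 and 24.4 in Sham, 27.5, 27.2 and 24.7 in F-, and 28.6, 27.2 and 27.0 in F+. The groups overlapped. F+ array 1 was the highest of all, F+ arrays 2 and 3 lay within the range of the others, and F+ array 2 did not stand out for this tryptase. Tpsab1 differed by 0.062 between F+ and F- (95% confidence interval -0.092 to 0.22, adjusted p = 0.837 from limma). The chymase genes on chromosome 15 and the tryptase genes on chromosome 10 have close relatives, and how far probes of one also bind transcripts of another was not tested.

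The receptor genes did not share one pattern. Kit, at chr14:32901615-32978895, was the only one of the 9 genes whose mean was lower in F+ than in F-, with 41.7, 41.6 and 40.0 in Sham, 36.6, 42.1 and 40.7 in F-, and 34.3, 36.8 and 40.1 in F+. The arrays of the 3 groups overlapped, with the lowest value on F+ array 1 and the highest on F- array 2. Kit is not confined to mast cells in other tissues, and its log2 fold change was -0.10 between F+ and F- (limma, unadjusted p = 0.172, adjusted p = 0.745) and -0.15 between F+ and Sham (unadjusted p = 0.0588, adjusted p = 0.676).

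Fcer1a, the IgE-binding chain at chr13:88218427-88224723, was 21.9, 21.3 and 21.0 in Sham, 20.4, 20.2 and 18.4 in F-, and 23.0, 26.2 and 19.7 in F+. All F- arrays were below all Sham arrays, and F+ array 3 fell among the F- arrays. Its differences were 0.22 between F+ and F- (standard error 0.0950, limma adjusted p = 0.674), -0.12 between F- and Sham (adjusted p = 0.765) and 0.092 between F+ and Sham (adjusted p = 0.827). The F+ to F- ratio of Fcer1a was 1.16, and 1.08 without F+ array 2.

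Ms4a2, the beta chain at chr1:217864855-217873934, was 14.8, 14.0 and 15.3 in Sham, 17.0, 13.6 and 15.6 in F-, and 15.6, 17.1 and 16.2 in F+. The F+ arrays lay above the Sham arrays without overlap, and the F- arrays spanned both. The log2 fold change was 0.15 for F+ against Sham (adjusted p = 0.704 from limma) and 0.087 for F+ against F- (adjusted p = 0.807).

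Hdc encodes histidine decarboxylase, which makes histamine from histidine, and lies at chr3:134300628-134318704. It was 20.1, 19.6 and 21.4 in Sham, 17.6, 19.8 and 18.3 in F-, and 23.0, 20.1 and 21.4 in F+. The F+ arrays were all above the F- arrays, with 20.1 on F+ array 2 next to 19.8 on F- array 2, and both overlapped Sham. Hdc differed by 0.21 between F+ and F- (standard error 0.0636, 95% confidence interval 0.064 to 0.36, limma unadjusted p = 0.0110, adjusted p = 0.622) and by -0.13 between F- and Sham (unadjusted p = 0.0690, adjusted p = 0.743). Unlike the other genes with separated F+ and F- arrays, Hdc was highest on F+ array 1, and its ratio was 1.2 without F+ array 2 against 1.16 with it.

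Over the 9 genes, 8 had a higher mean in F+ than in F- against 48.2% of all features, with Kit as the exception. Every F+ array was above every F- array for 3 of them (Cpa3, Cma1 and Hdc), which held for 4.46% of all features, and the same 3 had an unadjusted p below 0.05 with higher values in F+, as 3.65% of all features did. After adjustment over all features 0 of the 9 passed, as against 0.00342% of features (1 feature). The exact two-sided permutation test between F+ and F- gave p = 0.1 for Cma1 and Hdc, as for Cpa3, and 0.3 to 0.6 for the other 6 genes. Only Cpa3 exceeded 1.5-fold as a ratio of geometric means, against 0.154% of features. As a ratio of arithmetic means Mcpt1 did so too (0.70 on the log2 scale, against 0.69 for Cpa3). The study's own list of genes above 1.5-fold in F+ against F- held Cpa3 and Mcpt2. The median log2 fold change was 0.21, beside -0.0023 over all features. Since the genes were chosen with earlier results of these data known, not only those of Cpa3 and Cma1, these counts are a description of the group.

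For F+ against Sham, which uses the same F+ arrays, 8 genes were again higher against 47.5% of features, and the median was 0.093. Every F+ array was above every Sham array for Cpa3, Cma1 and Ms4a2, against 5.69% of all features. Cpa3 and Cma1 had an unadjusted p below 0.05, against 3.5% of features with higher values, and 0 of the 9 passed after adjustment, as with 0% of all features. For F- against Sham, the comparison of banding without fibrosis, 2 of the 9 genes (Cma1 and Ms4a2) were higher, against 48.2% of features, with a median of -0.022. Of the 9 genes, 0 passed after adjustment there (0% of features) and 0 had an unadjusted p below 0.05, against 6.03% of features in either direction. Fcer1a alone had all F- arrays below all Sham arrays, against 4.64% of features.

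**Figure D2:**
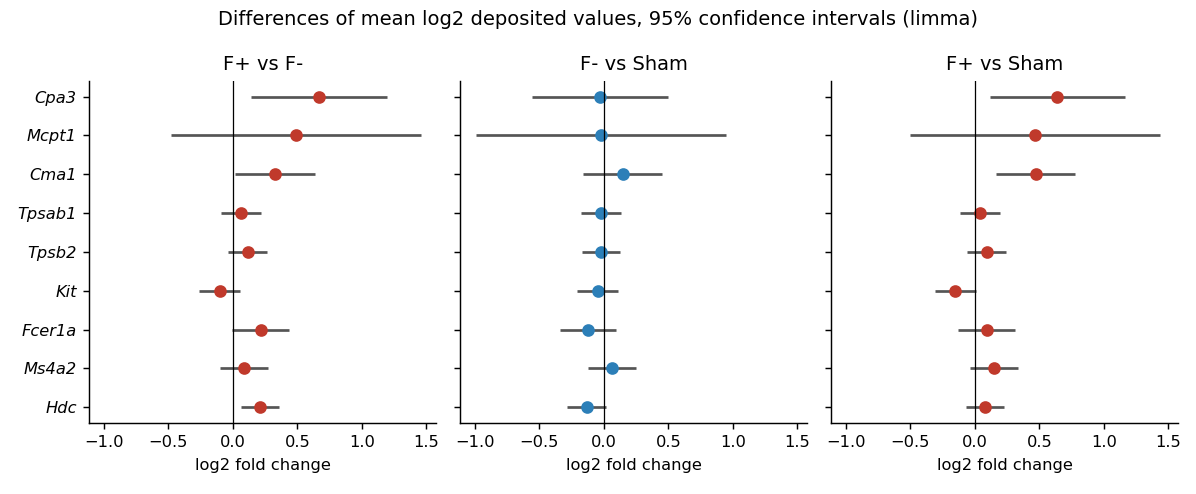
Log2 fold changes (horizontal axis) of the 9 genes (vertical axis) in the 3 comparisons, as points with 95% confidence intervals from limma as lines. In F+ against F- the intervals of Cpa3, Cma1 and Hdc lie above 0, and Mcpt1 has the widest interval, from -0.48 to 1.46.

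The 9 genes were not evenly raised across the F+ arrays. F+ array 2 held the highest of the 9 arrays for 6 genes (Cpa3, Mcpt1, Cma1, Ms4a2, Fcer1a and Tpsb2), whereas it was above each of the other 8 arrays for 9.38% of all features. F+ array 1 was highest for Hdc and Tpsab1, and F- array 2 for Kit. The ratio of F+ array 2 to the next array was 1.63 for Cpa3 and 2.58 for Mcpt1, and between 1.01 and 1.14 for the other genes that peaked there. The values of the 9 genes summed to 209.7, 254.9 and 209.7 in F+, against 195.6 to 203.8 in Sham and 189.4 to 200.1 in F-. The F+ arrays other than array 2 were above all Sham and F- arrays in this sum, though by far less than array 2 was. Sham array 1 was the highest of the others, and Cpa3 was 30.5 and 30.7 on F+ arrays 1 and 3 against 25.9 there. On F+ array 1 all genes but Kit (34.3 against 41.7) were above Sham array 1. On F+ array 3, Cma1, Ms4a2, Hdc and Tpsb2 were also above it, and Mcpt1, Kit, Fcer1a and Tpsab1 were below. Rises and falls thus partly cancelled in the sum. As Cpa3 was chosen with its F+ to F- difference known, the sum does not show that the other genes were raised on these arrays. Without F+ array 2, 7 of the 9 genes were higher in F+ than in F- and the median log2 fold change was 0.072.

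**Figure D3:**
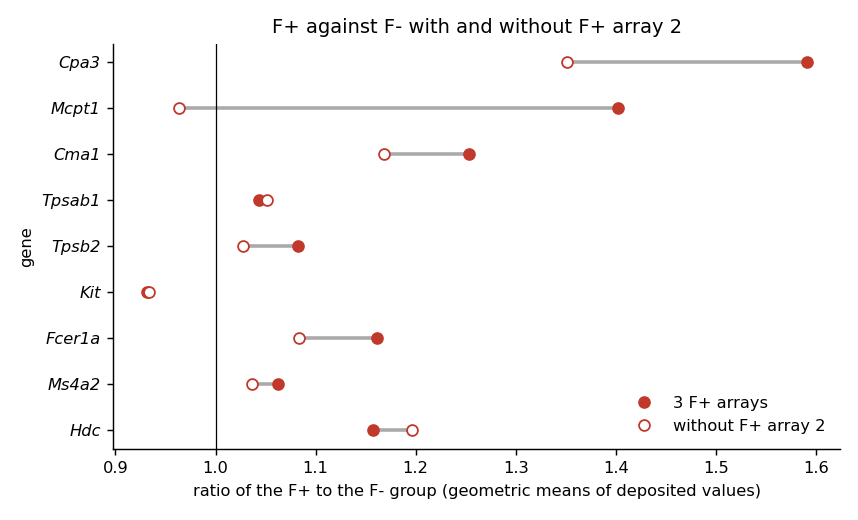
Ratios of the F+ to the F- group (horizontal axis, geometric means of deposited values) of the 9 genes (vertical axis) with all 3 F+ arrays as filled circles and without F+ array 2 as open circles. Cpa3 moves from 1.59 to 1.35 and Cma1 from 1.25 to 1.17, Mcpt1 crosses 1 from 1.40 to 0.964, and Kit and Tpsab1 hardly move.

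For Tpsb2, Fcer1a and Mcpt1, how closely the values followed Cpa3 also depended on F+ array 2. Pearson correlations of log2 values with Cpa3 over the 9 arrays were 0.836 for Cma1, 0.823 for Tpsb2, 0.799 for Ms4a2, 0.789 for Mcpt1 and 0.701 for Fcer1a, 0.242 for Tpsab1, 0.16 for Hdc and -0.633 for Kit. Over the 8 arrays without F+ array 2, the values were 0.777 for Ms4a2, 0.677 for Cma1, 0.323 for Tpsab1, 0.262 for Hdc and -0.647 for Kit, whereas Tpsb2 went to 0.394, Fcer1a to 0.211 and Mcpt1 to 0.173. These arrays are 3 groups of samples, so the correlations also carry the differences between the groups.

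The genes whose values most resembled those of Cpa3 over the 9 arrays, of 14505 compared, were Serpina3n (r = 0.981), Axl (0.965), Kcnt2 (0.961), Cdhr1 and Jak2 (0.956), Mcpt1l1 (0.954), Il1rl1 (0.952) and Slco1a3 (0.949). All 8 were highest on F+ array 2. They were picked for this resemblance, so traits shared with Cpa3, such as the peak on F+ array 2, largely follow from the choice. Without that array Mcpt1l1 (0.965), Serpina3n (0.958), Axl (0.934) and Kcnt2 (0.926) had the highest correlations of the 8. Axl encodes a receptor tyrosine kinase and Jak2 a kinase of cytokine signalling. Serpina3n, a serine protease inhibitor of the antichymotrypsin family, was 25.0, 22.5 and 22.6 in Sham, 25.0, 19.8 and 23.6 in F-, and 31.1, 49.2 and 29.0 in F+. Like Cpa3, it was lowest on F- array 2 and had all F+ arrays above the others (log2 fold change 0.64 for F+ against F-, adjusted p = 0.619 from limma).

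Mcpt1l1, a gene annotated as similar to Mcpt1, was 41.0, 38.7 and 36.4 in Sham, 46.8, 34.1 and 39.5 in F-, and 48.1, 55.5 and 47.7 in F+. RefSeq lists Mcpt1 and rMCP-1 among its synonyms. Its F+ arrays were above all others, F+ arrays 1 and 3 included, which differs from the values of the feature named Mcpt1. The log2 fold change of Mcpt1l1 was 0.34 between F+ and F- (limma, adjusted p = 0.639). Il1rl1, the receptor for the alarmin interleukin-33 that mast cells carry, was 29.8, 27.3 and 27.0 in Sham, 29.8, 27.1 and 29.8 in F-, and 29.8, 36.9 and 32.0 in F+. Its F+ array 1 matched the highest Sham and F- arrays.

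**Figure D4:**
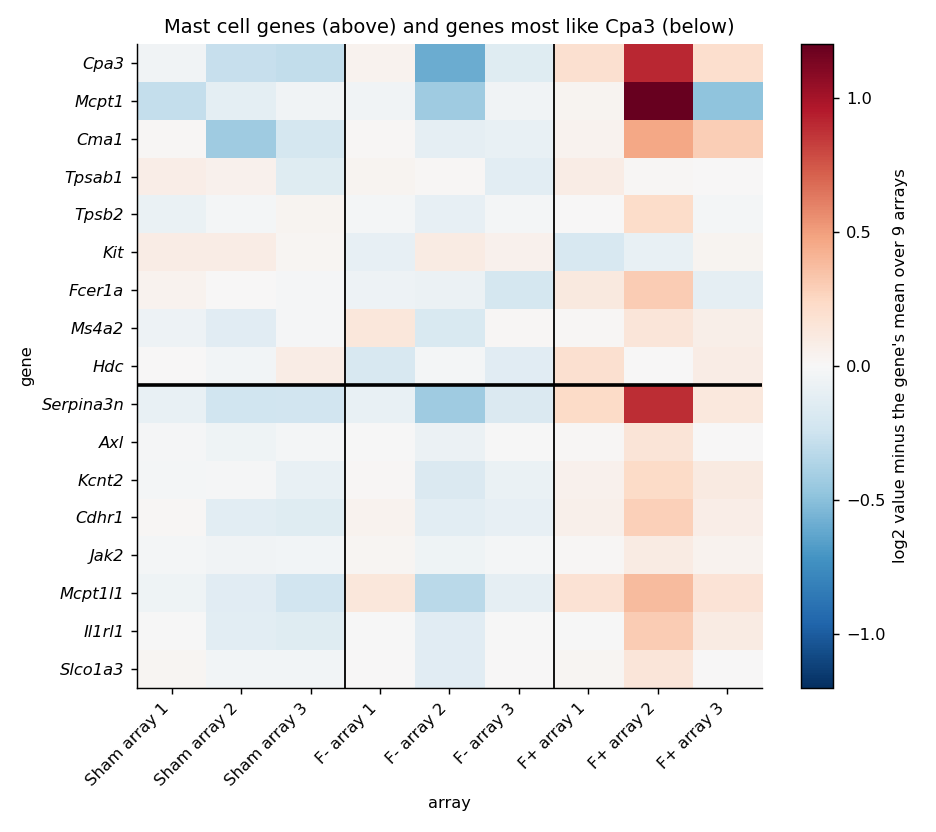
Log2 value minus the gene's mean over the 9 arrays (colour, red above and blue below) for the 9 mast cell genes (above the thick line) and the 8 genes most like Cpa3 (below it) in rows, with the arrays in columns and the groups set apart by thin lines. In the column of F+ array 2, Cpa3, Mcpt1, Cma1 and all 8 genes below the line, picked for their resemblance to Cpa3, are above their means. The red is faint where the deviation is small, as for Jak2 and Slco1a3. Kit, Hdc and Tpsab1 do not have their maximum there.

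Other genes of mast cells were counted from lists on their proteases, granules, receptors and regulators. The counts between F+ and F- stand beside 48.2% of all features with a higher mean in F+, and 3.65% with an unadjusted p below 0.05 and higher values. Of 9 measured further proteases of the mast cell family, 4 were higher and 5 lower in F+ than in F-, with a median log2 fold change of -0.0098. Mcpt1l1 was the only one with an unadjusted p below 0.05, and Mcpt9 (-0.23), Mcpt4 (0.12) and Gzmb (-0.085), granzyme B, had overlapping F+ and F- arrays. No feature was annotated with Mcpt2 alone, and rMCP-2 is among the synonyms of the gene named Mcpt1 above. The ratios that the study gave for Mcpt2 match those of that feature. Of 16 genes for granule contents and lipid mediators, 12 were higher and 4 lower, with a median of 0.035. An unadjusted p below 0.05 was found for 3 with higher values, against 3.65% of all features, and for 1 with lower values, against 3.76%. Ptgds, a prostaglandin D synthase of many tissues, was 47.8 ± 4.08 (SD, n = 3) in F+ and 34.9 ± 4.50 in F- (log2 fold change 0.46, adjusted p = 0.503 from limma), without overlap. Ptgs1, cyclooxygenase 1 (0.29), and Alox5ap, which serves leukotriene synthesis (0.19), were also separated, and Rab27a, a regulator of granule release, was at -0.14. The adjusted p of Ptgs1, Alox5ap and Rab27a were 0.601, 0.622 and 0.666 (limma).

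Among 14 measured genes for other surface receptors of mast cells, 13 were higher and 1 lower in F+ than in F-, 7 of them with an unadjusted p below 0.05 against 3.65% of all features, and 0 passed over all features. Their median was 0.18, and 0.14 without F+ array 2, where all 14 were higher. The receptors with the largest statistics were Csf2rb (0.33, adjusted p = 0.530 from limma), the common beta chain for interleukin-3 and related cytokines, and Cysltr1 (0.29, adjusted p = 0.557), a leukotriene receptor. Cysltr1 was 32.2, 32.5 and 35 in F+ and 25.8 to 29.6 in the other groups. Siglec5 (0.13) and Mrgprx2 (0.19), a receptor for basic peptides, also had all F+ arrays above all F- arrays. Several of these receptors are shared with macrophages and other leukocytes. Of 13 macrophage genes, 12 were higher and 1 lower in F+ than in F-, 6 with an unadjusted p below 0.05, with a median of 0.21. Their values summed to 838.9 to 878.3 in F+, 703.0 to 831.5 in F- and 709.8 to 752.0 in Sham. C1qb, a complement component, differed by 0.28 and Lgals3, galectin-3, by 0.35 (both adjusted p = 0.567 from limma). Their part in the receptor result was not tested.

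Of 17 genes of signalling from the IgE receptor, 10 were higher and 7 lower, against 48.2% of features higher, with a median of 0.021. An unadjusted p below 0.05 with higher values was found for 4, against 3.65% of features. These were the adaptors Grap2 (0.18) and Lcp2 (0.11), the kinase Syk (0.17) and Fcer1g (0.11), the gamma chain that the receptor shares with Fc receptors of macrophages. Fcer1g was 95.3 ± 1.10 (SD, n = 3) in F+, 88.1 ± 5.12 in F- and between 80.8 and 86.4 in Sham (adjusted p = 0.671 for F+ against F-, limma). Of 13 transcription factors of mast cells, 6 were higher and 7 lower, with a median of -0.0075. Gata2, which mast cells need to develop, was 49.3 ± 2.55 in F+ and 45.9 ± 1.40 in F- with overlapping arrays (0.10, adjusted p = 0.671). Mitf, a factor of mast cells that is also expressed in cardiomyocytes, was 75.8 ± 0.252 in F+ and 80.6 ± 2.02 in F-, with all F+ arrays below all others (-0.090, adjusted p = 0.635). Every F+ array was below every F- array for 5.28% of all features. Runx1 (0.12) and Ikzf2 (-0.061) had overlapping arrays.

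Kitlg, the stem cell factor that binds Kit, was 70.4, 69.2 and 69.2 in Sham, 70.8, 70.7 and 69.2 in F-, and 65.6, 67.4 and 70.9 in F+. The lowest values were on F+ arrays 1 and 2 and the highest on F+ array 3, so the groups overlapped (-0.048 for F+ against F-, adjusted p = 0.747 from limma). Il33 was 43.4 ± 2.95 (SD, n = 3) in F+ and 39.5 ± 2.48 in F- with overlapping arrays (0.14, adjusted p = 0.683). In the list of 13 measured growth and recruitment factors that holds both, 8 were higher and 5 lower, with a median of 0.057. The chemokines Cxcl12 (0.14) and Cx3cl1 (0.18) had all F+ arrays above all F- arrays and Il4 (-0.20) had them all below, each with an adjusted p of 0.481 (limma).

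Among 12 measured substrates and inhibitors of mast cell proteases, 8 were higher and 4 lower in F+ than in F-, with a median of 0.059. Ace, which also forms angiotensin II, was 52.3, 54.6 and 50.6 in F+, 46.6, 42.4 and 43.6 in F-, and 45.1, 43.1 and 45.5 in Sham. Its F+ arrays were apart from the others (0.25, adjusted p = 0.469 from limma). Edn1, whose precursor product is cut by chymase, differed by 0.46 (adjusted p = 0.601) with separated F+ and F- arrays. Agt, which encodes the precursor of angiotensin, was 27.7 on each F+ array and 20.3, 29.1 and 27.4 in F- (0.13, adjusted p = 0.802). Equal values on 3 or more arrays occurred for 39.4% of all features, and among the 9 mast cell genes for Mcpt1 (7.6 on 3 arrays) and Tpsb2 (31.1 on 4 arrays). Agtr1a, an angiotensin receptor, differed by 0.076 with overlapping arrays. Of 10 genes for histamine and protease receptors and the breakdown of histamine, 8 were higher in F+ than in F- (median 0.068). In F- against Sham, 1 of the 10 was higher, against 48.2% of all features. F2r (0.23), F2rl1 (0.17), which tryptase can cleave, Hrh4 (0.14) and F2rl2 (0.17) had overlapping F+ and F- arrays.

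**Figure D5:**
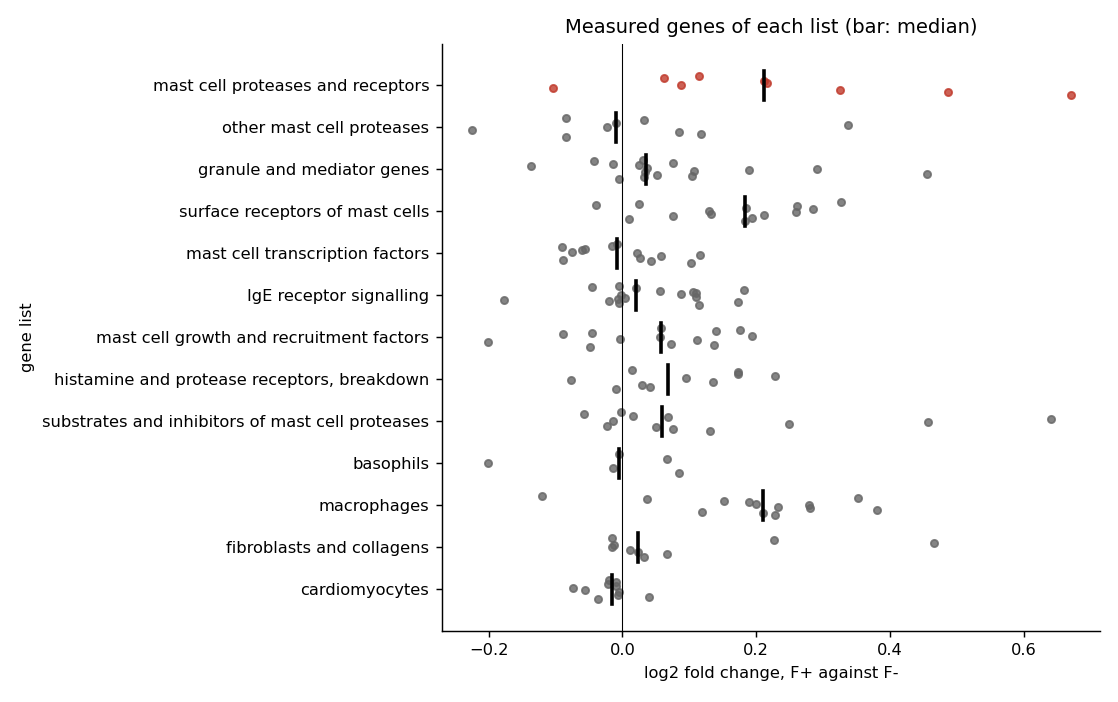
Log2 fold changes between F+ and F- (horizontal axis) of each measured gene (points) of the 9 mast cell genes, in red, and of 12 other lists (vertical axis), with the median of each list as a bar. The medians of the 9 genes, of the surface receptors and of the macrophages are at 0.21, 0.18 and 0.21, and that of the basophils at -0.0058.

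Marker genes of cells that share some of these genes were counted as well. Basophils also carry the IgE receptor and Hdc, and of 5 measured basophil genes 2 were higher and 3 lower in F+ than in F-, with a median of -0.0058. Their values summed to 97.6 to 104.6 in F+, 99.0 to 104.4 in F- and 99.9 to 105.0 in Sham. Mcpt8, the basophil protease of rodents, was 8.6, 8.4 and 11.8 in F+ and 8.1, 9.4 and 9.4 in F-. Of 5 eosinophil genes 2 were higher and 3 lower (median -0.0095), with sums of 88.8 to 93.5 in F+, 90.7 to 92.2 in F- and 89.5 to 98.5 in Sham. Red cell genes moved with the F+ group as well, with 6 of 7 higher (median 0.34) and sums of 292.2 to 391.8 in F+, 231.5 to 251.4 in F- and 211.9 to 262.9 in Sham. Hbb, a beta-globin, was 107.8, 64.2 and 76.8 in F+, so its highest value was on F+ array 1 and not on F+ array 2, where Cpa3 peaked. The part of red cell or macrophage RNA in the values of the 9 genes was not tested.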

How the data were processed

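Right ventricles were measured on 9 Affymetrix Rat Gene 1.0 ST arrays, 3 per group, as assigned by the sample titles. The authors deposited 1 signal value per feature and array, and the sources used here do not say how the background was corrected or which normalization and scale were used. The methods name TRIzol and sense-strand cDNA, but the sample labels give Sepasol and biotin-labelled cRNA. In the platform annotation 15310 of the 29215 features had 1 gene symbol, 323 had more than 1 and 13582 had no entry. RefSeq on GRCr8 held the gene ID of 15279 of them and changed 0 symbols.

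Log2 values of all features were fitted with limma 3.58.1 (lmFit, eBayes) in R 4.3.3, with 1 mean per group over all 9 arrays. Adjustment was by Benjamini-Hochberg over the whole table with a threshold of 0.05, and features above 1.5-fold were counted. Means ± SD are of deposited values. Exact two-sided permutation tests (scipy 1.17.1), with 0.1 as the smallest p for 3 against 3 arrays, were added for each of the 9 genes. The precision is limited by the number of arrays. The labels do not state that the replicate numbers pair samples, so they were not taken as pairs. Deviations of same-numbered arrays of different groups had correlations of -0.205 to 0.053.

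The 9 genes and all lists were chosen with earlier results of these data known. Besides the 9 genes, the text names up to 4 genes of each mast cell or pathway list and up to 2 of each other cell type by the moderated statistic of F+ against F-, the 8 genes most correlated with Cpa3, and Kitlg, Il33, Gata2, Mitf, Mcpt2 and Agt. Actc1, Bmp10 and Sln, named in the description of the arrays, were chosen after their values were seen. No set test was run on any list. The lists not described in the report were T and NK cells (13 measured, 6 higher in F+ than in F-, median log2 fold change -0.016), platelets (4, 4, 0.080), atrial chamber (6, 4, 0.077), mesothelium (6, 5, 0.029), adipocytes (8, 6, 0.048), nerve and Schwann cells (5, 4, 0.045), fibroblasts and collagens (9, 6, 0.023) and cardiomyocytes (10, 1, -0.015).

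The alternatives tried were each array left out in turn, median centring or quantile normalization, a fit without the dimmest 33.3% of features or with single-symbol features alone, square roots or untransformed values, a block for the replicate number, fits of 2 groups at a time, robust priors with a variance trend, arithmetic in place of geometric means, and averaging the features of a gene. Square roots without F+ array 2 were added after seeing the data. The procedure was tested on simulated data. Promoter stretches were read from RefSeq on GRCr8 with Python 3.11.15, and plots were drawn with matplotlib 3.10.9. The polymerase chain reaction and cell culture data of the study were not analysed here.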

Additional observations from a re-analysis of the deposited data

How the results depend on the processing

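Of the 9 genes, 0 passed the threshold in any comparison under any alternative run, and the lowest adjusted p over the alternatives was 0.304 (Cpa3, F+ against F-, limma). Between F+ and F-, 8 genes lost no direction under any alternative, and Mcpt1 did. Over the arrays left out in turn, Cpa3 ranged from 0.43 (without F+ array 2) to 0.81, Tpsb2 from 0.039 (without F+ array 2) to 0.16, Fcer1a from 0.12 (without F+ array 2) to 0.32, Ms4a2 from 0.00031 (without F- array 2) to 0.16, Tpsab1 from 0.013 (without F- array 3) to 0.090, and Kit from -0.16 (without F- array 1 or F+ array 3) to -0.049 (without F+ array 1). Cma1 ranged from 0.22 (without F+ array 2) to 0.44, beside 0.33 with all arrays, and Hdc from 0.16 to 0.26, beside 0.21. Without F+ array 2 Mcpt1 was -0.053 on the log2 scale, against a highest value of 0.89 without another array, and -0.043 on square roots without that array. The median log2 fold change of the 9 genes between F+ and F- was 0.072 to 0.24 over the arrays left out, and 7 to 8 genes were higher. It was 0.088 without the dimmest 33.3% of features, which removes 5 of the 9 genes and leaves 3 higher, 0.33 as a difference of square roots and 0.13 on square roots without F+ array 2, which are on another scale. If the values were squares of log2 values, the fold of Cpa3 between F+ and F- would be 2.40, that of Cma1 1.37 and that of Kit 0.858.

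For F- against Sham, 2 to 5 genes were higher over the arrays left out, with medians from -0.068 to 0.0038, and 0 of the remaining 4 were higher without those dim features. Differences near 0 changed sign there. Their ranges were -0.17 to 0.15 for Cpa3, -0.091 to 0.11 for Mcpt1, -0.090 to 0.011 for Kit, -0.012 to 0.15 for Ms4a2, -0.091 to 0.027 for Tpsab1 and -0.050 to 0.0054 for Tpsb2. For F+ against Sham, 6 to 8 genes were higher over the arrays left out (3 of the remaining 4 without those dim features), with medians from 0.050 to 0.15 (0.18 as a difference of square roots). Mcpt1 ranged from -0.075 to 0.86, Fcer1a from -0.0075 to 0.20 and Tpsab1 from -0.029 to 0.081, where the lowest values of Mcpt1 and Fcer1a were those without F+ array 2 and that of Tpsab1 was without Sham array 3. Without F+ array 2 on square roots, Mcpt1 was -0.059 and Fcer1a -0.0087. The cause of these changes was not tested beyond the arrays and features left out.

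A block for the replicate number cannot alter the fitted differences here, since each number occurs once per group (Cpa3 between F+ and F- 0.67). With it 0 of the 9 genes passed (Cpa3 adjusted p = 0.745 from limma), and over all features 0 were called between F+ and F- against 1 without it. Of the 9 pairs of same-numbered arrays, 0 had correlated deviations over 0.1. Differently numbered pairs were not compared, so a batch shared by same-numbered arrays was not tested. For the 9 genes the other alternatives changed no direction or call. Over all features the alternatives called 0 to 3 between F+ and F-, 0 between F- and Sham, and 0 to 1 between F+ and Sham. With 3 arrays per group and 5 of the 9 genes among the dimmest 33.3% of features, small differences between the groups could not be resolved.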
